A study of Mus musculus with 16 samples.

Results

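The genes described are 9 transcription factors of the macrophage lineage: Cebpa, Cebpb, Cebpd and Cebpg of the C/EBP family, Spi1, which encodes PU.1, Maf, Mef2a, Mef2c and Mitf. They were chosen by gene symbol from the 35275 genes of a deposited count table. The rule holds no measured value, but the choice was made with earlier results of these data known. All 9 were found there, and all 9 were among the 13080 genes that passed a filter on low counts and were tested. In cultured macrophages without the Cre transgene, 4 hours of TGF-β1 raised Cebpa, Cebpg and Mef2a and lowered Cebpd, Maf and Mef2c. No call was made for Cebpb, Spi1 or Mitf in that comparison.

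PU.1 is an ETS-family factor that marks out the regulatory regions used in macrophages, and C/EBP proteins bind many of the same regions beside it. C/EBPα is best known from the step that commits progenitors to the myeloid lineage, C/EBPβ and C/EBPδ from responses to inflammatory signals, and C/EBPγ, which lacks a transactivation domain of the usual kind, as a dimer partner of the others. MAF helps to hold macrophages in a differentiated, non-dividing state. MEF2 factors recruit class IIa histone deacetylases and drive genes of muscle, neurons and immune cells. MITF, of the MiT/TFE family, acts with PU.1 in osteoclasts, which arise from the same precursors as macrophages.

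RNA was read from macrophages grown out of the tibial marrow of C57BL/6 mice, 4 libraries to each of 4 groups. The control mice carried Smad7fl/fl alleles without Cre (here fl/fl), and the knockout mice were CAGGCre-ER;Smad7fl/fl (here KO), in which a Cre that tamoxifen activates is expressed under the CAGG promoter in all tissues. Smad7 encodes an inhibitor of TGF-β signalling. Every mouse of both genotypes had tamoxifen, 20 mg/kg on 5 days at 1 month of age, and was killed 2 weeks later. Cells of all 4 groups had 15% serum with CSF-1, first at 12 ng/ml for 24 hours and next at 120 ng/ml for 48 hours, followed by about 12 hours of serum starvation. Cells then stayed untreated or received TGF-β1 at 10 ng/ml for 4 hours. The labels do not tie the 4 libraries of a group to separate animals, so the p-values measure the spread between these libraries, which may be technical.

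Totals ran from 16865591 to 23741079 counts per library. The targeted gene, Smad7, was at 3.89 to 6.03 CPM (the gene's count relative to the scaled library total) in untreated fl/fl cells and at 37.3 to 58.3 CPM with TGF-β1. In KO cells it was at 1.28 to 2.00 CPM in untreated replicates 2 to 4 and at 10.3 to 19.7 CPM with TGF-β1. Its count covers the whole gene, not the deleted part alone. The library labelled KO untreated replicate 1 held 5.87 CPM of Smad7, within the range of the untreated fl/fl cells and above that of the other 3 untreated KO libraries. That level was also below the range of the TGF-β1 libraries of either genotype. Whether the label is right cannot be settled from the files. For most of the 9 factors this library lay with the TGF-β1 libraries, so TGF-β1 responses in the KO are given with and without it. Its mean correlation with its own group was 0.961. Among the others, fl/fl TGF-β1 replicate 4 was at 0.952, KO untreated replicate 2 at 0.963, and the remaining 13 between 0.975 and 0.986. All 9 macrophage markers were detected, with a summed level of 17236 to 25436 CPM. The summed level was 21347 to 23446 CPM in untreated and 17236 to 21397 CPM in TGF-β1-treated fl/fl cells, and its part in the results was not tested. Neutrophil markers summed to 3.23 to 11.0 CPM with Ly6g and Retnlg at 0, dendritic cell markers to 3.39 to 8.76 CPM, and osteoclast markers to 8.12 to 18.3 CPM. Megakaryocyte markers stood highest after those of macrophages, at 36.4 to 146 CPM, and endothelial markers summed to 5.86 to 22.2 CPM. In untreated KO replicates 2 to 4, the megakaryocyte sum was mostly Pf4, at a mean of 89.7 CPM. Itga2b, Gp9 and Ppbp had means of 0.652, 0.123 and 0.444 CPM there. Of the endothelial markers, Kdr was at 11.9 CPM in these libraries, and Cdh5, Pecam1 and Tek at 0.266, 1.12 and 0.0466 CPM. Mast cell and basophil, B cell, T and NK cell, erythroid and stromal markers each summed to at most 1.88 CPM. In bulk RNA, a change in the number of cells of one type and a change in RNA per cell cannot be told apart.

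Stretches of RefSeq promoter sequence are shown for 2 pairs of factors: Cebpa and Cebpg, neighbours on chromosome 7 that both rose, and Mef2a and Mef2c, relatives that moved in opposite directions. Each stretch runs from 250 bases before to 50 bases after a transcript start, 5′ to 3′ on the strand of the gene, in build GRCm38.p6. Capitals mark letters that match any of the motifs named in the next paragraph. The Cebpa stretch is chr7:35119043-35119342 on the plus strand, and the Cebpg stretch is chr7:35056517-35056816 on the minus strand. The Mef2a stretch is chr7:67372809-67373108 on the minus strand, and the Mef2c stretch, the first of 3 stretches listed for that gene, is chr13:83503784-83504083 on the plus strand.
Cebpa: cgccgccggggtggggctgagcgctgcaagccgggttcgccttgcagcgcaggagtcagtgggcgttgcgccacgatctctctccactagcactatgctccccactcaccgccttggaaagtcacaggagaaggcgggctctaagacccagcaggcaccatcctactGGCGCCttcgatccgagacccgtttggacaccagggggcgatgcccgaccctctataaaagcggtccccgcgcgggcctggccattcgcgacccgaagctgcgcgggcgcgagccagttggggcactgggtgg
Cebpg: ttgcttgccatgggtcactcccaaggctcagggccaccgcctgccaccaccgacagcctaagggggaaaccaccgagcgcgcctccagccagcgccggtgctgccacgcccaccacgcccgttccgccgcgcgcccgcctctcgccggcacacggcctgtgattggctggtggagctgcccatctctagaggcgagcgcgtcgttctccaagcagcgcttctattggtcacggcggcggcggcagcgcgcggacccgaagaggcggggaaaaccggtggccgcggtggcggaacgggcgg
Mef2a: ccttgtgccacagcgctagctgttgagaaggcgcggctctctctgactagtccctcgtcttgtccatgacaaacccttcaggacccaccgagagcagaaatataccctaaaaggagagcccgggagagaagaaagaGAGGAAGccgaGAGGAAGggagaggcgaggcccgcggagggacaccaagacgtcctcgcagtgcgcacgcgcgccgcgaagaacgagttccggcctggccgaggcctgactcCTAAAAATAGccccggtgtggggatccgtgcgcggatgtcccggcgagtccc
Mef2c: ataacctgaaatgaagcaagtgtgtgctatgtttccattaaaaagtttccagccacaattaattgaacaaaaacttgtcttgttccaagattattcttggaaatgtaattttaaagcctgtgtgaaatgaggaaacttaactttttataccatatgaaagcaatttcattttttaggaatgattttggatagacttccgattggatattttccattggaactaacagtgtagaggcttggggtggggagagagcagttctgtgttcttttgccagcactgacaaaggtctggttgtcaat

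The letters searched, on both strands, were CAGACA (Smad box), GGCGCC (GC-rich Smad motif), TTGCNNAA (C/EBP), GAGGAAG (PU.1), CTANNNNTAG (MEF2), CACGTG (the E-box of MITF), TGCTGA (MAF half-site) and TGAGTCA (AP-1). The Cebpa stretch held GGCGCC once, at -83 counted from the start, a motif found in 11.9% of all 32817 promoter stretches of this length. The Mef2a stretch held GAGGAAG 2 times, at -114 and -103, against 13.6% of all stretches with a match. It also held CTAAAAATAG, a MEF2 match found in 3.69% of stretches, beginning at -2. No matches overlapped. The Cebpg stretch and the Mef2c stretch shown held none of the 8 motifs, which says only that these letters are not in these windows. Of the other 2 Mef2c stretches, one held GAGGAAG and CAGACA once each, and the other TGCTGA once, against 21.0% of all stretches with CAGACA and 19.5% with TGCTGA. The stretches differed in base composition, with 67.3% G and C for Cebpa, 71.7% for Cebpg, 62.3% for Mef2a and 35.7% for Mef2c. RefSeq stretches were matched for 6 of the 9 factors, and none was used for Cebpd, Spi1 or Maf. A match is a description of letters and was not tested for binding.

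Per length, the order of the 9 factors differed between untreated and treated cells. FPKM, the deposited level per gene length and library total, allows such a comparison between genes. In untreated fl/fl cells, Spi1 stood highest at 192 ± 14.1 FPKM (SD, n = 4), above Maf at 91.4 ± 5.48 and Cebpa at 86.3 ± 19.7 FPKM. The ranges of Maf and Cebpa overlapped. Mef2a followed at 43.5 ± 3.80 and Cebpb at 41.3 ± 7.41 FPKM, which overlapped each other, then Mitf at 30.1 ± 3.60 and Cebpd at 29.6 ± 2.85 FPKM, which also overlapped. Mef2c at 18.4 ± 1.13 and Cebpg at 14.1 ± 0.349 FPKM were lowest and did not overlap. With TGF-β1, Cebpa stood highest in fl/fl cells at 369 ± 58.8 FPKM, followed by Spi1 at 166 ± 30.3 and Mef2a at 130 ± 16.1 FPKM, with no overlap among these 3 genes. By its mean, Maf stood at 26.8 ± 1.33 FPKM, below Cebpb at 59.8 ± 7.69 FPKM. Spi1 ranked first in 7 of the 8 untreated libraries, and Cebpa, Spi1, Mef2a and Cebpb held ranks 1 to 4 in all 8 TGF-β1 libraries. In KO untreated replicate 1, the same 4 genes held ranks 1 to 4 in the same order. The plot of CPM by library shows each factor on its own scale.

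**Figure D1:**
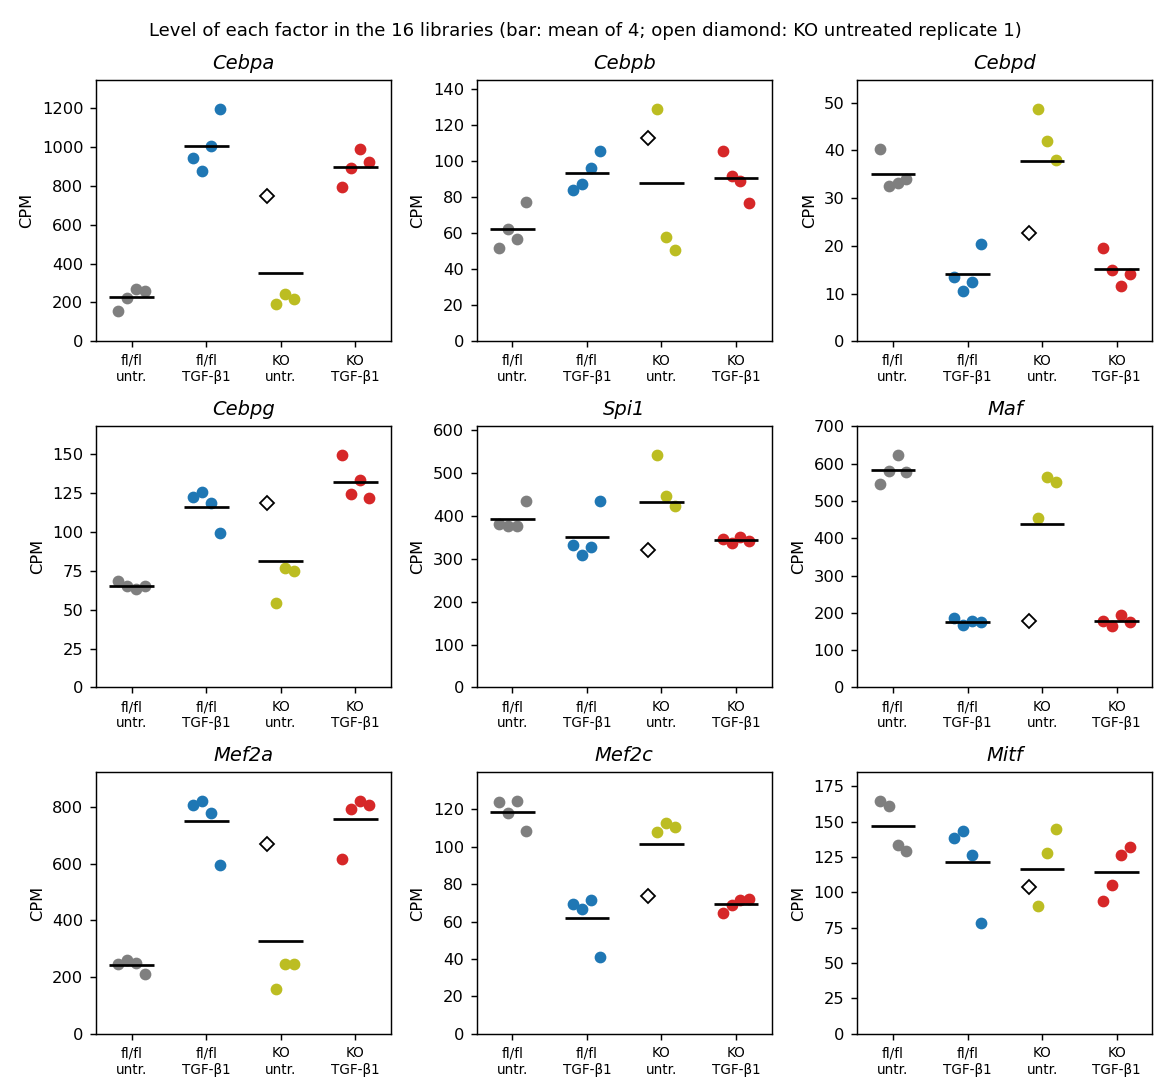
Level of each of the 9 factors in CPM (vertical axis, linear, from 0) in the 16 libraries of the 4 groups; points are libraries, bars are means of 4, and the open diamond is KO untreated replicate 1. Cebpa, Cebpg and Mef2a were higher and Cebpd, Maf and Mef2c lower in every fl/fl TGF-β1 library than in every untreated fl/fl library, and the diamond lies near the TGF-β1 levels for Cebpa, Cebpg, Maf, Mef2a and Mef2c.

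Cebpa (ENSMUSG00000034957, mm10 chr7:35119293-35121926, plus strand) rose most of the 9. The 4 untreated fl/fl libraries held 158, 221, 271 and 260 CPM, and the 4 treated ones 943, 878, 1006 and 1196 CPM. Every treated library was far above every untreated one. The change was 4.42-fold, a log2 fold change of 2.15 ± 0.35 (SE; edgeR adjusted p = 0.00109). In KO cells the untreated libraries held 747, 191, 243 and 215 CPM and the treated ones 793, 890, 990 and 921 CPM. Replicate 1 of the untreated KO cells thus stood near the treated libraries, and the other 3 near the untreated fl/fl cells. The KO log2 fold change was 1.36 ± 0.34 (adjusted p = 0.033) over all 16 libraries and 2.08 ± 0.17 (adjusted p = 6.08e-08) without that library.

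Cebpg (ENSMUSG00000056216, mm10 chr7:35046422-35056503, minus strand) lies 62.8 kb from Cebpa, on the opposite strand, with no other gene of the table between them. Untreated fl/fl libraries held 68.2, 65.1, 63.4 and 65.3 CPM, and treated ones 122, 125, 118 and 99.0 CPM. The groups did not overlap, and the untreated libraries lay within a few CPM of each other. The log2 fold change was 0.83 ± 0.17 (adjusted p = 0.00284), smaller than that of its neighbour. In the KO it was 0.71 ± 0.17 (adjusted p = 0.024) with all libraries and 0.98 ± 0.13 (adjusted p = 2e-05) without untreated replicate 1, which held 118 CPM against 54.0, 76.6 and 74.6 CPM in the other 3. The treated KO libraries held 149, 124, 133 and 122 CPM, above every untreated library of either genotype.

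Cebpd (ENSMUSG00000071637, mm10 chr16:15887286-15888466, plus strand) fell. It is typed as a pseudogene in the deposited table and as protein-coding in GENCODE M21. Untreated fl/fl libraries held 40.3, 32.6, 33.1 and 34.0 CPM and treated ones 13.4, 10.6, 12.4 and 20.3 CPM, so every treated library was below every untreated one. Its log2 fold change was -1.30 ± 0.22 (adjusted p = 0.00127), to 0.406 of the untreated level. In the KO the untreated libraries held 22.7, 48.7, 42.0 and 37.9 CPM and the treated ones 19.6, 15.0, 11.6 and 14.2 CPM. The gap between untreated replicate 1 and the highest treated library was small, and the groups did not overlap. For KO cells the log2 fold change was -1.33 ± 0.22 (adjusted p = 0.00808) with that library and -1.47 ± 0.19 (adjusted p = 1.85e-05) without it.

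Cebpb (ENSMUSG00000056501, mm10 chr2:167688915-167690418, plus strand) did not pass the threshold in either genotype. Untreated fl/fl libraries held 51.9, 62.4, 56.8 and 77.3 CPM and treated ones 83.9, 86.9, 96.1 and 106 CPM. The 2 fl/fl groups did not overlap, yet the log2 fold change of 0.58 ± 0.24 missed the threshold in the fit of 16 libraries (adjusted p = 0.112). It passed in the fit of the 8 fl/fl libraries alone (adjusted p = 0.0077). Untreated KO libraries were spread the most, at 113, 129, 57.6 and 50.6 CPM, around the treated ones at 105, 91.4, 88.8 and 76.7 CPM. The KO log2 fold change was 0.05 ± 0.23 (adjusted p = 0.967), and 0.23 ± 0.23 (adjusted p = 0.643) without untreated replicate 1. Leaving out untreated replicate 2 as well, an alternative added after seeing the data, gave 0.77 (adjusted p = 0.0023). Cebpb overlaps Tmem189 on the opposite strand, and since the strand setting of the counting is not stated, reads of the 2 genes cannot be told apart where they overlap. The same limit holds for the FPKM ranks, shares and ratios that include Cebpb.

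As a share of the summed FPKM of the 4 C/EBP genes, Cebpa made up 49.9 ± 6.00% in untreated fl/fl cells and 79.3 ± 1.08% with TGF-β1 (SD, n = 4 each). The share of Cebpb was 24.1 ± 2.48% before and 12.9 ± 0.584% after, and that of Cebpd 17.7 ± 4.15% and 2.47 ± 0.435%. In the KO the Cebpa share was 51.3 ± 14.8% untreated, or 44.9 ± 9.20% (n = 3) without replicate 1, and 77.0 ± 3.70% treated. After treatment, Cebpa held the largest share of the family in every library of both genotypes. It also did so in every untreated library except KO untreated replicate 2, where it held 34.3% against 40.6% for Cebpb.

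Maf (ENSMUSG00000055435, mm10 chr8:115682942-115707794, minus strand), which encodes c-MAF, fell in both genotypes. Untreated fl/fl libraries held 546, 580, 623 and 578 CPM and treated ones 186, 168, 179 and 174 CPM. The treated values lay in a narrow band far below the untreated ones. The log2 fold change was -1.72 ± 0.23 (adjusted p = 0.000508), to 0.304 of the untreated level. In the KO, untreated libraries held 179, 455, 563 and 549 CPM and treated ones 179, 166, 195 and 175 CPM. Untreated replicate 1 fell inside the treated band, and the other 3 were above it. In KO cells the log2 fold change was -1.29 ± 0.23 (adjusted p = 0.00927) with that library and -1.52 ± 0.10 (adjusted p = 3.8e-09) without it. The calls for Maf and Cebpd in the KO held in each of the 16 fits that left out 1 library. In the fit of the 8 KO libraries alone both were lost (adjusted p = 0.16 for Maf and 0.15 for Cebpd), and edgeR called no tested gene at all.

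Mef2a (ENSMUSG00000030557, mm10 chr7:67231163-67372858, minus strand) rose while its relative Mef2c fell. Untreated fl/fl libraries held 245, 259, 251 and 211 CPM of Mef2a and treated ones 806, 821, 781 and 594 CPM. The groups did not overlap, with replicate 4 lowest in both. Its log2 fold change was 1.64 ± 0.32 (adjusted p = 0.00265), a 3.11-fold rise. In the KO, untreated libraries held 669, 156, 245 and 246 CPM and treated ones 615, 792, 820 and 808 CPM. Untreated replicate 1 was above treated replicate 1, and the other 3 were below every treated library. The KO log2 fold change was 1.21 ± 0.31 (adjusted p = 0.0379) with that library and 1.84 ± 0.17 (adjusted p = 2.87e-07) without it.

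Mef2c (ENSMUSG00000005583, mm10 chr13:83504034-83667079, plus strand) held 124, 118, 124 and 109 CPM in untreated fl/fl libraries and 69.5, 66.5, 71.8 and 40.8 CPM in treated ones. Every treated library was below every untreated one, with treated replicate 4 lowest. The log2 fold change was -0.93 ± 0.16 (adjusted p = 0.00109). Untreated KO libraries held 73.8, 108, 113 and 111 CPM and treated ones 64.7, 68.7, 71.7 and 72.1 CPM. Untreated replicate 1 was just above the treated range. In KO cells the log2 fold change was -0.55 ± 0.16 (adjusted p = 0.0491) with that library and -0.64 ± 0.14 (adjusted p = 0.00357) without it. With the replicate number as a block the KO call for Mef2c was lost (adjusted p = 0.0657).

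Spi1 (ENSMUSG00000002111, mm10 chr2:91082390-91115756, plus strand) held 379, 376, 376 and 433 CPM in untreated fl/fl libraries and 331, 309, 326 and 433 CPM in treated ones. Replicate 4 was highest in both groups, and the groups overlapped. Its log2 fold change was -0.16 ± 0.14 (adjusted p = 0.496). Untreated KO libraries held 319, 541, 446 and 422 CPM and treated ones 345, 336, 349 and 341 CPM. Its KO log2 fold change was -0.33 ± 0.14 (adjusted p = 0.192) with all libraries. Without untreated replicate 1 it was -0.42 ± 0.12 and passed the threshold (adjusted p = 0.0175), and without untreated replicates 1 and 2 it was -0.31 and did not (adjusted p = 0.100).

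Mitf (ENSMUSG00000035158, mm10 chr6:97807058-98021349, plus strand) overlapped between untreated and treated cells in both genotypes. Untreated fl/fl libraries held 164, 161, 133 and 129 CPM and treated ones 139, 143, 127 and 78.5 CPM. The log2 fold change was -0.27 ± 0.18 (adjusted p = 0.359). In the KO, untreated libraries held 104, 90.5, 127 and 145 CPM and treated ones 94.1, 105, 126 and 132 CPM, so both groups covered nearly the same range. The KO log2 fold change was -0.03 ± 0.18 (adjusted p = 0.98) with all libraries and -0.05 ± 0.19 (adjusted p = 0.926) without untreated replicate 1.

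**Figure D2:**
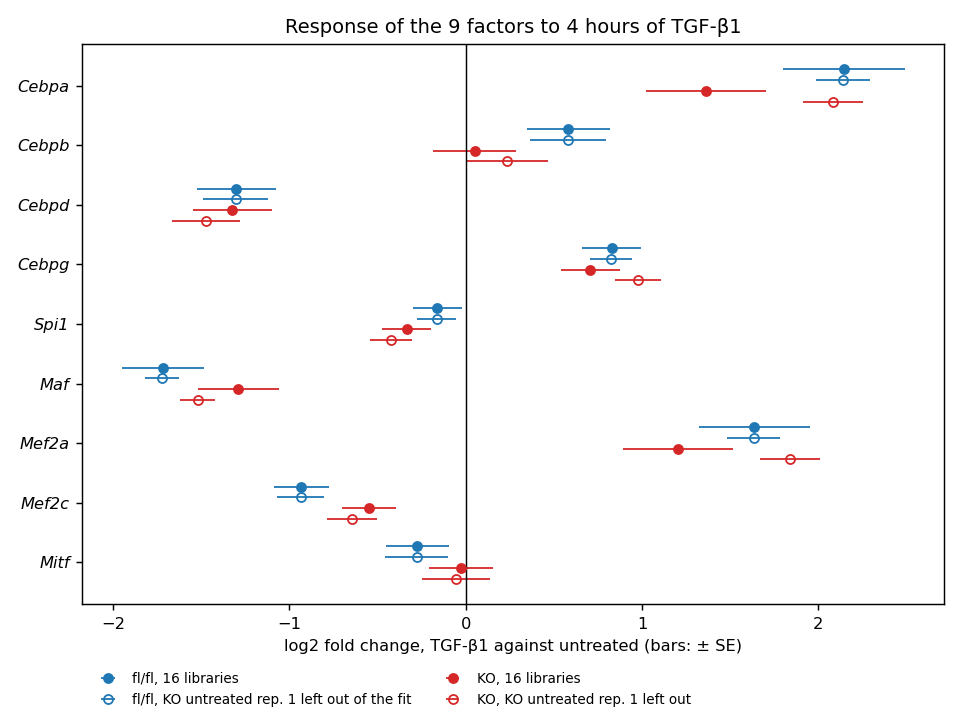
Log2 fold change of each factor, TGF-β1 against untreated (horizontal axis), with bars for ± SE; filled points come from the fit of 16 libraries and open points from the fit without KO untreated replicate 1, blue for fl/fl and red for KO. In fl/fl cells the values ran from 2.15 for Cebpa to -1.72 for Maf; for Cebpa and Mef2a the KO value moves from 1.36 to 2.08 and from 1.21 to 1.84 when that library is left out.

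Counted together, 3 of the 9 factors were called higher and 3 lower in fl/fl cells, where 7.87% of all tested genes were called higher and 7.61% lower. The members' counts were the same when KO untreated replicate 1 stayed out of the fit, against 8.71% and 9.02% of 13335 genes. In KO cells, 3 were called higher and 3 lower, against 2.19% and 2.97% of all genes. Leaving out that library gave 3 higher and 4 lower calls, Spi1 being the addition, against 8.17% and 6.7% of all genes. The median log2 fold change of the 9 in fl/fl cells was -0.16, beside -0.01 for all tested genes. In fl/fl cells, 7 of the 9 did not overlap between untreated and treated libraries, the exceptions being Spi1 and Mitf, against 23.9% of all tested genes. In the KO, Cebpa, Cebpd, Cebpg and Mef2c did not overlap over all libraries, against 6.04% of all genes. Without untreated replicate 1, 7 did not overlap, the exceptions being Cebpb and Mitf, against 24.2% of all genes in the same 3 and 4 libraries. The 9 were chosen with earlier results of these data known, so these shares are a description and not a test of the set.

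The KO calls depended on which libraries were in the fit. Among the 16 fits that left out 1 library, the call held in 9 for Cebpg, 7 for Cebpa, 2 for Mef2a, 2 for Mef2c and 1 for Spi1. Cebpg lost its call without any 1 of KO untreated replicates 2 to 4 or of the 4 treated KO libraries, with adjusted p up to 0.102. Cebpa lost its call without any 1 of those 7 libraries, and also without replicate 2 of the untreated or replicate 3 of the treated fl/fl cells, with a log2 fold change down to 1.16 and adjusted p up to 0.127. Mef2a and Mef2c kept their calls only without KO untreated replicate 1 or without fl/fl TGF-β1 replicate 4, and their adjusted p reached 0.141 and 0.185. In fl/fl cells the 6 called factors kept their calls in all 16 such fits.

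Ratios between related factors were taken per length within each library. The Cebpa to Cebpb ratio of FPKM was 2.1 ± 0.43 in untreated and 6.16 ± 0.344 in treated fl/fl cells (SD, n = 4 each). Its KO value was 2.37 ± 1.20 untreated, or 1.89 ± 0.909 (n = 3) without replicate 1, and 5.77 ± 1.12 treated. The Mef2a to Mef2c ratio was 2.36 ± 0.130 and 14.3 ± 1.85 in fl/fl cells, and in the KO 4.32 ± 4.15, or 2.26 ± 0.503 without replicate 1, and 12.7 ± 1.10. Each of the 4 comparisons gave an exact two-sided permutation p of 0.0286, the smallest that these group sizes allow, and 0.0286 after adjustment over the 4. In fl/fl cells this outcome was fixed for both ratios by the levels already given. Mef2a rose and Mef2c fell without overlap, and Cebpa rose by more than the range of Cebpb could offset. Both ratios therefore had to separate, and their p adds no further evidence. The same holds for both ratios in the KO without untreated replicate 1.

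**Figure D3:**
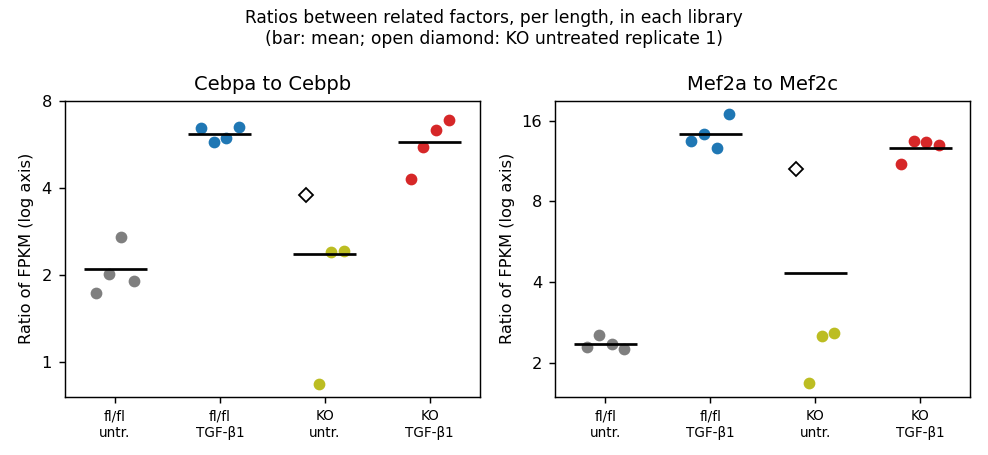
Ratio of FPKM between 2 related genes in each library (vertical log axes) for Cebpa to Cebpb and Mef2a to Mef2c; points are libraries, bars are means, and the open diamond is KO untreated replicate 1. The untreated and treated points do not overlap in either genotype, and the diamond is the untreated KO point nearest to the treated ones in each panel, at 10.5 for Mef2a to Mef2c against 11.0 to 13.4 in treated KO cells.

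Between genotypes, none of the 9 factors was called in untreated cells, where 0.0459% of all genes were called. Their log2 differences, KO against fl/fl, ran from -0.41 ± 0.23 for Maf to 0.62 ± 0.34 for Cebpa (adjusted p = 0.496 and 0.493). Without KO untreated replicate 1 the Cebpa difference was -0.09 ± 0.16, the Maf difference -0.18 ± 0.10 and the Mef2a difference -0.18 ± 0.16. The largest of the 9 was then 0.32 ± 0.23 for Cebpb, none was called, and 0.0975% of all genes were. In treated cells the differences ran from -0.16 ± 0.33 for Cebpa to 0.19 ± 0.16 for Cebpg, and none was called against 0.0382% of all genes, or 0.06% without that library.

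The difference between the TGF-β1 responses, KO minus fl/fl, was also tested. It was -0.78 ± 0.47 for Cebpa over all libraries and -0.06 ± 0.22 without KO untreated replicate 1, and -0.43 ± 0.43 and 0.21 ± 0.22 for Mef2a. For Maf it was 0.43 ± 0.32 and 0.20 ± 0.14, and for Cebpb -0.53 ± 0.33 and -0.34 ± 0.32. No factor was called in either fit, where 0% of all genes were (edgeR adjusted p of at least 0.993 and 0.981). At an unadjusted p under 0.05 the fits held 275 and 267 genes, none of them among the 9, and DESeq2 called 1 gene, also not among the 9. The fl/fl and KO responses draw on separate libraries, but each genotype's response shares libraries with the comparisons between genotypes.

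The relatives and partners of the 9 factors moved in part with TGF-β1. Counts of called genes in these and the next lists are to be read against the share of all tested genes called in either direction, 15.5% in fl/fl cells, 5.17% in the KO and 14.9% in the KO without untreated replicate 1. Of 3 small MAF relatives that were tested, 2 rose in fl/fl cells and none fell, the opposite direction to Maf. Maff, which encodes a MAF protein without a transactivation domain, rose by 1.17 ± 0.28 on the log2 scale (adjusted p = 0.00754) and Mafg by 0.29 ± 0.09 (adjusted p = 0.0371). None of the 3 was called in the KO, where Maff was at 0.47 ± 0.27 (adjusted p = 0.419), or at 0.66 ± 0.29 (adjusted p = 0.155) without untreated replicate 1. Among MEF2 relatives and class IIa deacetylases, 3 of 5 rose and none fell in fl/fl cells. Hdac4, a MEF2 corepressor, rose by 0.97 ± 0.16 (adjusted p = 0.00106) and Mef2d by 0.48 ± 0.15 (adjusted p = 0.04). Hdac4 alone was called in the KO, at 0.77 ± 0.16 (adjusted p = 0.0171). Without untreated replicate 1, 3 of 5 were called there, with Hdac4 at 1.05 ± 0.11 (adjusted p = 2.36e-06) and Mef2d at 0.48 ± 0.10 (adjusted p = 0.00337).

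Of the 3 MiT/TFE relatives of Mitf, Tfec fell in both genotypes, while Tfe3 and Tfeb were not called. Tfec, a member found in macrophages, was at 69.4, 64.8, 62.8 and 70.1 CPM in untreated and 21.8, 27.5, 27.8 and 17.5 CPM in treated fl/fl libraries. The groups did not overlap, and the log2 fold change was -1.50 ± 0.25 (adjusted p = 0.00108). The KO value was -1.06 ± 0.24 (adjusted p = 0.0235) and -1.26 ± 0.19 (adjusted p = 7.98e-05) without untreated replicate 1. Of 6 tested C/EBP relatives and regulators, only Trib1, whose product leads C/EBPα protein to degradation, was called in fl/fl cells, at 0.54 ± 0.16 (adjusted p = 0.0311), and none was called in the KO in either fit. Trib1 in the KO was at 0.25 ± 0.16 (adjusted p = 0.49) and, without that library, 0.36 ± 0.17 (adjusted p = 0.204).

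Among 16 tested relatives and partners of PU.1, 7 rose and 5 fell in fl/fl cells, 3 rose and 2 fell in the KO, and 8 rose and 4 fell in the KO without untreated replicate 1. The median log2 fold change of the 16 in fl/fl cells was 0.37, beside -0.01 for all tested genes. Runx3, a runt-domain factor, was at 2.4 to 4.2 CPM in untreated and 29.9 to 53.3 CPM in treated fl/fl libraries, a log2 fold change of 3.49 ± 0.72 (adjusted p = 0.00443). In the KO it was 1.27 ± 0.64 (adjusted p = 0.337), and 3.01 ± 0.32 (adjusted p = 1.44e-06) without untreated replicate 1, which held 37.9 CPM. Id2, an inhibitor of bHLH factors, rose by 1.99 ± 0.30 in fl/fl cells (adjusted p = 0.000885) and by 1.81 ± 0.30 in the KO (adjusted p = 0.00808), or 2.39 ± 0.19 without that library. Spic, a PU.1 relative known from red pulp macrophages of the spleen, fell from 11.8 to 19.8 CPM in untreated to 1.1 to 2.8 CPM in treated fl/fl libraries. Its log2 fold change was -2.97 ± 0.54 (adjusted p = 0.002) there and -2.76 ± 0.53 (adjusted p = 0.013) in the KO, or -3.11 ± 0.28 without that library. Spib, another PU.1 relative, was called lower in fl/fl cells (adjusted p = 0.0317) on at most 22 counts in any library. Ets2 fell by 1.28 ± 0.35 in the KO (adjusted p = 0.0484), or by 1.51 ± 0.27 without that library. Ets1 rose there by 1.00 ± 0.23 (adjusted p = 0.0233), or by 1.40 ± 0.18 without it.

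**Figure D4:**
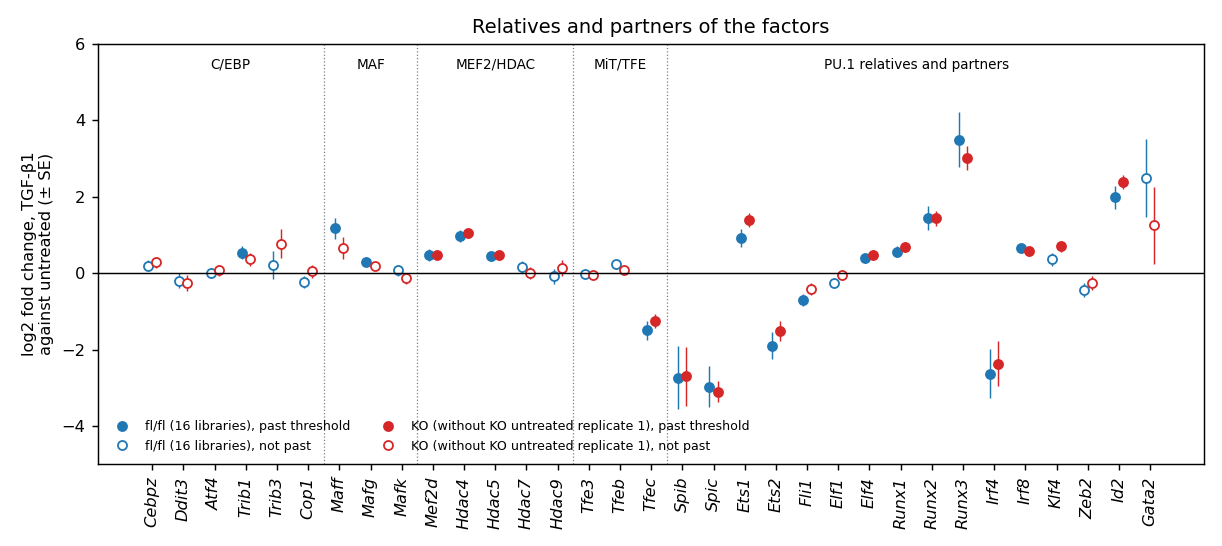
Log2 fold change with TGF-β1 (vertical axis, ± SE) of tested relatives and partners of the factors, grouped by family; blue is fl/fl from the fit of 16 libraries, red is KO without untreated replicate 1, and filled points passed the threshold. Runx3 and Id2 stand highest among the called genes and Spic lowest, with both genotypes on the same side of 0 for each called gene.

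The next lists hold genes known as targets of these factors. Of 19 macrophage genes driven by PU.1 and C/EBP, 3 rose and 1 fell in fl/fl cells, 21.1% of them beside 15.5% of all genes, and the median log2 fold change was 0.02, beside -0.01 for all genes. Ncf1, a subunit of the phagocyte oxidase, rose by 0.89 ± 0.13 (adjusted p = 0.000697) and Csf2rb, a receptor chain for GM-CSF, by 0.51 ± 0.12 (adjusted p = 0.00886). Tlr4, the receptor for endotoxin, fell, with a log2 fold change of -1.56 ± 0.24 (adjusted p = 0.000753). In the KO, Ncf1 at 0.59 ± 0.13 (adjusted p = 0.0182) and Tlr4 at -1.05 ± 0.24 (adjusted p = 0.021) were the 2 called, 10.5% of the list beside 5.17% of all genes. Without untreated replicate 1, 2 rose and 2 fell, with Ncf1 at 0.79 ± 0.10 (adjusted p = 1.16e-05) and Tlr4 at -1.23 ± 0.19 (adjusted p = 0.000109). The 7 tested granulocyte genes of C/EBP gave no call in either genotype. Ltf, encoding lactoferrin, had the lowest p among them in fl/fl cells, with a log2 fold change of -0.87 ± 0.42 (adjusted p = 0.19), and Ngp, a granule protein, in the KO, at -0.22 ± 0.25 (adjusted p = 0.77), or -0.22 ± 0.28 without that library. The median of the granulocyte genes was -0.48 in fl/fl cells and -0.22 in the KO, beside -0.01 and -0.03 for all tested genes. Without that library the KO median was -0.37 over 9 tested, beside -0.01.

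Of 8 tested genes that depend on MAF in macrophages, 3 fell and none rose in fl/fl cells, with a median of -0.14. In the KO, 1 fell and none rose, with a median of -0.04. Without untreated replicate 1, 2 fell there and none rose, with a median of -0.06. Cd163, the scavenger receptor for haemoglobin, was at 18.4 to 24.5 CPM in untreated and 2.67 to 5.11 CPM in treated fl/fl libraries, a log2 fold change of -2.60 ± 0.37 (adjusted p = 0.000697). Its KO value was -1.95 ± 0.36 (adjusted p = 0.00959), and -2.23 ± 0.22 (adjusted p = 6.19e-07) without untreated replicate 1, which held 5.11 CPM. Il10, encoding an anti-inflammatory cytokine, had 45, 36, 54 and 49 counts in untreated fl/fl libraries and 4, 3, 2 and 0 in treated ones, and it was called lower (adjusted p = 0.00281). In the KO it was called without untreated replicate 1, which held 0 counts (adjusted p = 0.000209, against 0.0512 with it). The complement genes C1qa, C1qb and C1qc, also in the list, were not called, at 0.27, 0.02 and 0.16 in fl/fl cells.

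Il10 was also the only one of 7 tested C/EBPβ and C/EBPδ inflammatory targets called in fl/fl cells. None was called in the KO, and 3 of 8 tested fell there without untreated replicate 1, when Il1b was at -1.58 ± 0.38 (adjusted p = 0.00746). The median log2 fold change of this list was -0.63 in fl/fl cells, -0.70 in the KO and -1.02 in the KO without that library. All tested genes had medians of -0.01, -0.03 and -0.01. Of 7 MEF2 targets, 1 rose and 2 fell in fl/fl cells, 1 rose and 1 fell in the KO, and 2 rose and 2 fell in the KO without untreated replicate 1. Klf2, which keeps macrophages quiescent, was at -2.08 ± 0.40 (adjusted p = 0.00274) in fl/fl cells and at -2.30 ± 0.41 (adjusted p = 0.00927) in the KO, or -2.60 ± 0.21 without that library. Klf6, a related zinc finger factor, was at -0.80 ± 0.17 (adjusted p = 0.0047) in fl/fl cells. In the KO it was at -0.47 ± 0.17 (adjusted p = 0.136), and it was called lower there without untreated replicate 1, at -0.61 ± 0.14 (adjusted p = 0.00632). Irf8, a partner of PU.1, was at 0.65 ± 0.12 (adjusted p = 0.00221) in fl/fl cells and 0.46 ± 0.12 (adjusted p = 0.0399) in the KO, or 0.57 ± 0.13 without that library. Of 13 tested MITF and TFE targets, 1 rose and 2 fell in fl/fl cells, none was called in the KO, and 1 rose and 2 fell there without untreated replicate 1. These are 23.1%, 0% and 23.1% of the list, beside 15.5%, 5.17% and 14.9% of all genes. Bhlhe40, a bHLH repressor, was at 3.29 ± 0.58 (adjusted p = 0.002) in fl/fl cells, and at 1.81 ± 0.54 (adjusted p = 0.0692) and 3.25 ± 0.17 (adjusted p = 2.43e-10) in the KO with and without that library. Atp6v0d2, a proton pump subunit of osteoclasts, fell in fl/fl cells, at -1.33 ± 0.21 (adjusted p = 0.000753), and was at -0.67 ± 0.20 (adjusted p = 0.066) in the KO, or -0.77 ± 0.20 (adjusted p = 0.0143) without that library. Tnfrsf11a, which encodes the receptor RANK, fell in fl/fl cells too, at -0.65 ± 0.15 (adjusted p = 0.00627). Its KO values were -0.38 ± 0.15 (adjusted p = 0.171) and, without that library, -0.49 ± 0.12 (adjusted p = 0.01).

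Across the 16 libraries, the genes whose log2 CPM followed a factor most closely were found by Pearson's coefficient, as a description, since the libraries share their treatment groups. For Maf they were Slc40a1, the iron exporter ferroportin, and Cd200r1, an inhibitory receptor, both at 0.993. For Cebpa they were Mvb12b at 0.993 and Tspan14 at 0.992, for Mef2a Luzp1 and Cpd, both at 0.992, and for Mef2c Clec7a, the β-glucan receptor, at 0.986 and Pid1 at 0.982. Cebpg was followed by Rab32 at 0.980 and Fam105a at 0.978, and Cebpd by Pik3r6 at 0.977 and Eps8 at 0.959. For the factors not called, the closest gene was looser than the closest gene of each called factor, though the second gene of Cebpd was as loose. Mitf was followed by Cask at 0.961 and Adam17 at 0.957, and Spi1 by Pdlim4 at 0.954 and Cmtm3 at 0.936. Cebpb was followed by Fos, an AP-1 subunit, at 0.947 and Vegfa at 0.942. Without KO untreated replicate 1, both named genes of Maf, Cebpb and Mef2c were again the 2 closest, and neither was for Mef2a or Mitf.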

How the data were processed

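RNA was measured in 16 libraries, 4 in each of 4 groups. The extraction text of the labels speaks of 8 libraries, which the labels do not resolve. The submitters' processing notes name TopHat2 (2.0.9), HTSeq (0.6.1), Cufflinks (2.1.1), mm10 and GRCm38.p6, without roles, and the strand setting of the counting is not given in the sources used here. Raw read counts per gene, whole and not normalized, form the deposited count table. The deposited FPKM table holds FPKM, which equal count over gene length and library total within 0.1% for 100% of positive values. The gene length column, of another unit, was deposited with the counts. No column of per-sample values stayed without a sample.

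From the counts, 1 edgeR 4.0.16 quasi-likelihood model (robust, TMM scaling, filterByExpr, R 4.3.3) was fitted to all 16 libraries, with Benjamini-Hochberg adjustment over all genes tested and a threshold of 0.05. SE is the log2 fold change over the square root of F. CPM are relative to the TMM-scaled total, and likeness used log2 CPM with a prior count of 2 among genes with a mean log2 CPM of at least 1. Ratios of FPKM were compared by exact permutation tests. Alternatives were RLE scaling, DESeq2 1.42.0, no filter, a fit of only the groups compared, the replicate number as a block shared by both genotypes, and leaving out each library.

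The members and lists were chosen with earlier results of these data known. The text names all 9 members, from each list up to 2 rising and 2 falling called genes with the largest change in each TGF-β1 comparison or, with none called, the one with the lowest p, and per member the 2 genes most like it; the remaining relatives named (Tfe3, Tfeb, C1qa, C1qb, C1qc, Il1b) were chosen after their values were seen. One gene is not reported here. All 152 symbols of the lists were found, 2 of them (Cop1 and Adgre1) by identifier. Same-numbered untreated and treated libraries deviated together weakly, with correlations of 0.123 to 0.181 in fl/fl cells and 0.0754 to 0.239 in the KO. Between the genotypes, same-numbered libraries of like treatment had correlations of -0.175 to -0.0219. The best-matching treated library bore the same number only for fl/fl replicates 2 and 4 and KO replicates 3 and 4. The labels do not give a pairing, these values do not settle one, and the main fit used none. Depth of 16865591 to 23741079 counts sets the precision, and reads carry no molecular identifiers.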

Additional observations from a re-analysis of the deposited data

Results flagged for a closer look

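Within groups of 4, a library was marked where its gap to the nearest other, divided by the range of the group, exceeded the 95% critical value of Dixon's test. This happened in 5 of the 36 combinations of factor and group, while the nominal rate of the rule is about 1 in 20. The 36 combinations draw on the same libraries and are not independent. The rule was applied to these factors only, so whether they were marked more often than other genes was not tested. KO untreated replicate 1 was marked for Cebpa, at 747 CPM against 191 to 243 CPM in the other 3 libraries, and for Mef2c, at 73.8 CPM against 108 to 113 CPM. Spi1 was at 433 CPM in fl/fl untreated replicate 4 and at 376 to 379 CPM in the rest of that group. Mef2a was at 615 CPM in KO TGF-β1 replicate 1 and at 792 to 820 CPM in the other 3. Mef2c was at 40.8 CPM in fl/fl TGF-β1 replicate 4, the library with the lowest mean correlation with its group, and at 66.5 to 71.8 CPM in the other 3. The causes of these values were not tested.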

How the results depend on the processing

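In fl/fl cells, 6 or 7 factors were called under every alternative, 6 in the main fit, and none changed direction. In the KO, 6 were called in the main fit, 3 with no filter on low counts, 0 with only the groups compared, 5 with the replicate block and 2 to 7 when 1 library was left out. Over all genes these fits called 676, 446, 0, 662 and 81 to 1984. The block left the counts of called factors unchanged in fl/fl cells and cost the KO call of Mef2c. It gave same-numbered libraries of both genotypes a shared shift, so it does not test a pairing within a genotype. A pairing by replicate number is not settled in either genotype. Between the genotypes, and for the difference between the responses, 0 were called under every alternative.

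Signs turned only for values that were not called, and the cause was not tested beyond the libraries left out. When 1 library was left out, the TGF-β1 response in the KO ran from -0.11 to 0.31 for Cebpb and from -0.12 to 0.11 for Mitf. The untreated difference, KO against fl/fl, ran from -0.092 to 0.83 for Cebpa, -0.039 to 0.27 for Cebpd and -0.18 to 0.68 for Mef2a. The treated difference ran from -0.11 to 0.023 for Cebpb, -0.054 to 0.30 for Cebpd, -0.092 to 0.081 for Spi1, -0.037 to 0.059 for Maf, -0.089 to 0.11 for Mef2a and -0.0082 to 0.23 for Mef2c. The difference between the responses ran from -0.17 to 0.20 for Cebpd, -0.26 to 0.15 for Cebpg and -0.66 to 0.21 for Mef2a.

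Under 2 alternatives added after seeing the data, further signs turned. Without KO untreated replicate 1 and with the replicate block, the untreated difference was -0.16 for Cebpa and -0.20 for Mef2a, and the difference between the responses 0.0067 for Cebpa, 0.12 for Cebpg and 0.23 for Mef2a. Without KO untreated replicates 1 and 2, the untreated difference was -0.0041 for Cebpa and -0.22 for Cebpb, and the difference between the responses 0.19 for Cebpb, 0.0043 for Cebpg and 0.018 for Mef2a. In the main fit the untreated Cebpa difference of 0.62 ± 0.34 was not called, and it was -0.092 without KO untreated replicate 1. Groups of 4 libraries, with 3 of the 16 apart from their groups, limit what a comparison between the genotypes can show.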
